A study of Homo sapiens with 13 samples.

Results

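The 7 genes FOS, JUN, NR4A1, KLF4, DUSP5, GEM and EGR1 belong to the immediate early and activity-induced genes. They were chosen by gene symbol among 4580 named genes that had a value on at least 1 array. They were measured in 3 human myeloma cell lines, KMS12, H929 and SKMM1, which derive from a cancer of plasma cells. On each of 13 spotted cDNA arrays (Lymphochip), RNA of a culture carrying a hairpin against IRF4 was labelled with Cy5, and RNA of a culture of the same line carrying a control hairpin against luciferase (shluc) was labelled with Cy3. IRF4 regulates transcription in the B lineage and is required by plasma cells. Doxycycline, the agent that induces the hairpins, was given at 20 ng/ml. Values are log2 ratios, so that -1 means 50% of the control culture's mRNA and 1 means 200%, relative to the median gene of the array. The KMS12 cultures formed 3 series, named in the labels by hairpin as 1332, 1332b and 2046. In each there was 1 array without doxycycline (uninduced), 1 at day 2 or 3 and 1 at day 4 or 5, and series 1332 also had 1 at day 7. Series 1332 was taken at days 3 and 5 and the other series at days 2 and 4. H929 had 2 repeat arrays and SKMM1 had 1, all with hairpin 2046 at day 4. No uninduced H929 or SKMM1 array was analysed here. The luciferase culture on an induced array carries the same day in its label. The labels do not say whether a culture was a clone or a pool, or whether repeats came from separate cultures. The spread behind the p-values holds differences of hairpin, series and day within the KMS12 windows. Between the H929 repeats it could be purely technical.

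Immediate early genes are switched on within minutes of a signal at the cell surface, without new protein synthesis. The signal runs through RAS and the MAP kinase ERK, or through calcium and CREB, to factors already bound at the promoter, such as serum response factor at a CArG box or CREB at a cyclic AMP response element. FOS and JUN encode partner subunits of the factor AP-1. EGR1 and KLF4 encode zinc finger factors, and NR4A1 encodes the orphan nuclear receptor Nur77, which antigen receptor signals induce in lymphocytes. DUSP5 encodes a nuclear phosphatase that removes the activating phosphates from ERK. GEM encodes a small GTPase of the RGK family that restrains calcium channels. In B lineage cells these genes read out receptor signalling, and KLF4 is known to hold resting B cells out of the cell cycle.

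Promoter sequences from RefSeq (GRCh38.p14), the 250 bases upstream of each start, are shown for KLF4, NR4A1, FOS and EGR1. The tested features of KLF4 and NR4A1 lay on one side of the control on every induced array with a value. The EGR1 window held CArG boxes, and the FOS window held the CREB half-site TGACG but no CArG box. Capitals mark matches on either strand to the CArG box, the CREB half-site TGACG (which also lies within the full site TGACGTCA, searched as well), the AP-1 site TGANTCA, the EGR site GCGNGGGCG, and 2 elements that IRF factors bind, the interferon-stimulated response element and the ETS-IRF composite element.
KLF4, chr9:107489770-107490019, minus strand: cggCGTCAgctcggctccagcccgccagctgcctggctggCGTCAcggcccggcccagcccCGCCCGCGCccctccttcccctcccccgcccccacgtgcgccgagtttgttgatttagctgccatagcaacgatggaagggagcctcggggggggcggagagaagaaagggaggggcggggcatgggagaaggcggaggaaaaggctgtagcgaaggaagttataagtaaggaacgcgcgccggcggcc
NR4A1, chr12:52037465-52037714, plus strand: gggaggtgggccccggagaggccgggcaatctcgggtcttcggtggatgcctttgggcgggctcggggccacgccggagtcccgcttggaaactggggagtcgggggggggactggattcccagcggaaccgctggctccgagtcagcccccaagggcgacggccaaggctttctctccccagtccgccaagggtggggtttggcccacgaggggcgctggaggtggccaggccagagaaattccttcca
FOS, chr14:75278578-75278827, plus strand: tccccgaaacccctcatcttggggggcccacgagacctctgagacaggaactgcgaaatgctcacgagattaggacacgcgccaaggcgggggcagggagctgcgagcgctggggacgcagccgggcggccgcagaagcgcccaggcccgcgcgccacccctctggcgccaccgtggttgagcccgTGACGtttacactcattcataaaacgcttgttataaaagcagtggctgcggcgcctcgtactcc
EGR1, chr5:138465229-138465478, plus strand: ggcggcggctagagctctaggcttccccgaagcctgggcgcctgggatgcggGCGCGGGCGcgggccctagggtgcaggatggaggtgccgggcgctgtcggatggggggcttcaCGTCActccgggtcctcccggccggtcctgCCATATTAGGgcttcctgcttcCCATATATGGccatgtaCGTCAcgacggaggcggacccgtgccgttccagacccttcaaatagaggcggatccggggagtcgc
The NR4A1 sequence belongs to the downstream of 2 starts, and neither start held a capital motif. In the EGR1 window 2 CArG boxes stood at -105 to -96 and -83 to -74 from the start, and in the FOS window the half-site stood at -64 to -60. KLF4 carried 2 half-sites and 1 EGR site. The table held promoters of 5 of the 7 genes, DUSP5 and GEM not being among them. Of these 5 genes 4 carried TGACG (JUN is the other besides KLF4, FOS and EGR1), against 21.2% of all 35116 promoters of that length. A CArG box lay in 1 of 5, against 1.16% of all promoters, and an EGR site in 2 of 5, against 8.41%. TGACGTCA (1.65% of all promoters), TGANTCA (6.57%), the interferon-stimulated response element (3.02%) and the ETS-IRF composite element (2.41%) lay in none of the 5. These matches describe letters in this window alone.

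The array printed 22 features for the 7 genes, of which 20 had a value on at least 1 array. A feature was tested if it had a value on at least 10 of 13 arrays and on at least 2 of 3 arrays of each KMS12 window. This left 10 features of 6 genes: 1 of NR4A1, 2 of 3 of DUSP5, 1 of 3 of KLF4, 2 of 4 of GEM, 2 of 3 of FOS and 2 of 5 of JUN. EGR1 was not tested, as 1 of its 3 features had values, on 7 arrays. Over the whole series 4728 genes and unnamed features were tested, and arrays held between 7140 and 14228 measured features. IRF4 itself stood at 0.18 ± 0.06 on the uninduced KMS12 arrays, -1.32 ± 0.40 at days 2-3 and -0.66 ± 0.08 at days 4-5 (mean ± SD, n = 3 each), and at -0.76 on the day 7 array, -1.88 ± 0.12 (SD, n = 2) in H929 and -2.03 on the SKMM1 array. Features with values on 10 or 11 arrays had a median of -0.33 on the 2046 uninduced array, -0.16 on the 1332 uninduced array and -0.03 on the 1332b uninduced array, against -0.04 to 0.13 on the induced arrays. The tested features of KLF4, GEM and FOS are in this class. With each array centred separately for features of equal coverage (class centring), their differences from uninduced moved. At days 2-3 they went from 0.81 to 0.66 for KLF4, from 0.92 to 0.76 for GEM and from 0.08 to -0.07 for FOS. At days 4-5 they went from 0.67 to 0.50, from 0.78 to 0.59 and from 0.52 to 0.33. What part coverage has beyond this was not tested. Among features with values on 1 to 5 arrays, the medians on the series 1332 arrays were -0.75 uninduced and 0.70, 1.04 and 1.34 at days 3, 5 and 7. A ratio of 2 cultures of 1 line gives no level, so the plasma cell identity of the lines could not be checked. Of 7 plasma cell markers tested 6 lay below 0 at days 2-3 against uninduced (median -0.59) and 7 at days 4-5 (median -0.34). Of 3 markers of earlier B cells 3 and 2 lay above 0 (medians 0.66 and 0.45), and of 4 T cell markers 4 and 4 (medians 0.34 and 0.20). None was called, and their part in the results was not tested.

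At days 2-3 and again at days 4-5 in KMS12, NR4A1 and DUSP5 lay lower than on the uninduced arrays and KLF4 and GEM lay higher. For these 4 genes the groups did not overlap in either window, while FOS and JUN overlapped. KLF4 had values on only 2 arrays of each group, where groups separate more easily than with 3. At days 4-5 its lower array stood at 0.18, against 0.09 on the higher uninduced array. Groups that do not overlap were frequent: at days 2-3 they made up 16.9% of all genes and features tested on the lower side and 16.3% on the higher side, and at days 4-5 they made up 5.63% and 7.99%. None of the 6 genes passed in either window (limma, Benjamini-Hochberg over all tested, 0.05), and of all 4728 genes and features 0 passed (0%). At an unadjusted p under 0.05 there were 3 of 6 at days 2-3 (NR4A1, KLF4 and GEM), against 25.8% of all tested, and 2 of 6 at days 4-5 (DUSP5 and GEM), against 5.96%. Since the genes were chosen with earlier results known, these shares are a description.

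**Figure D1:**
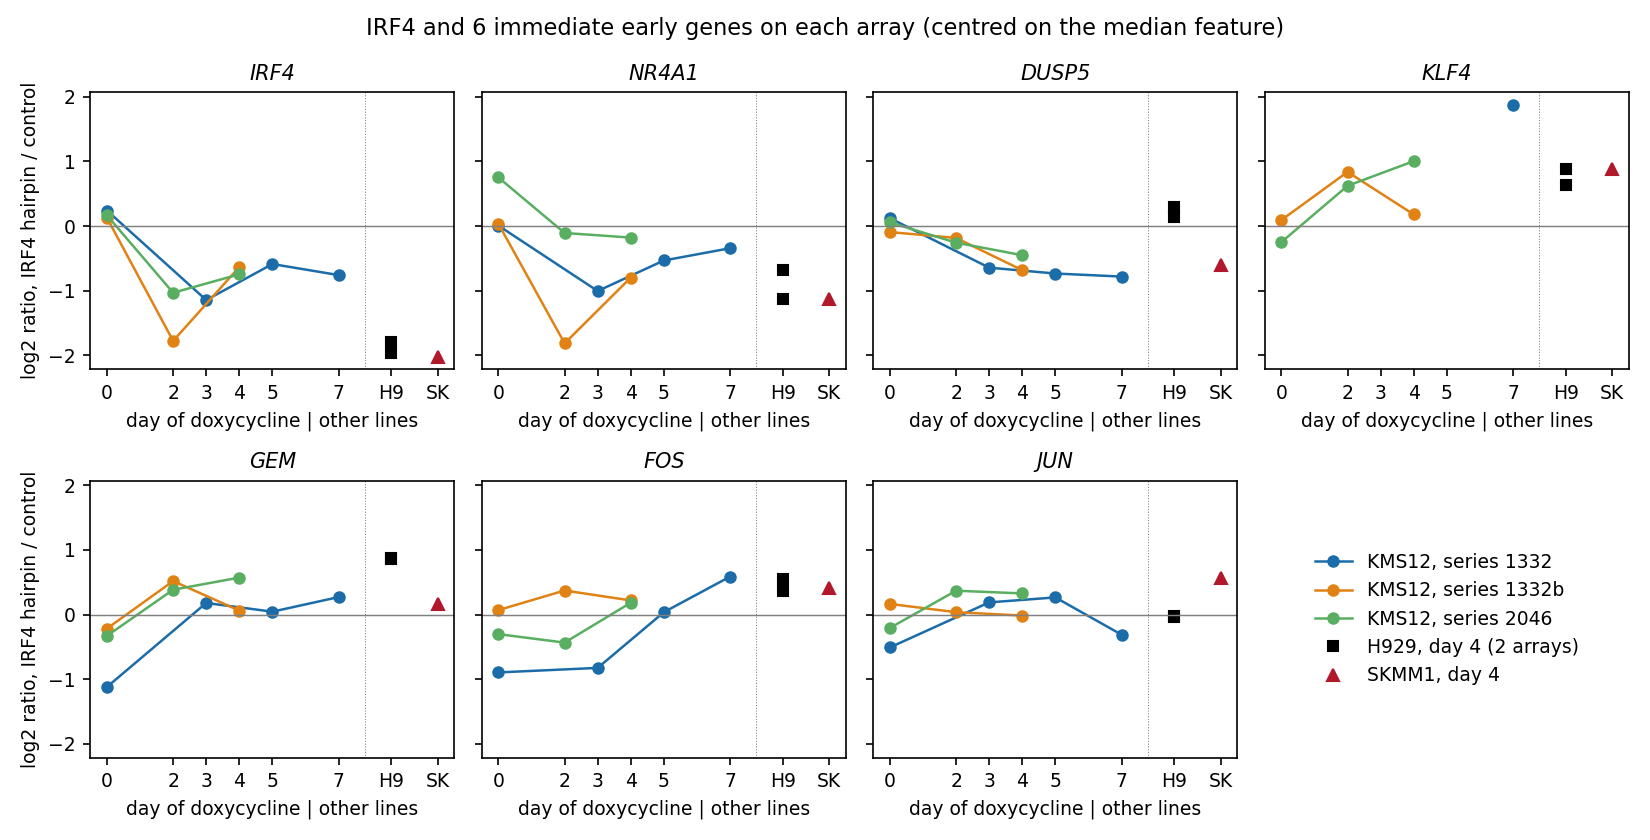
Log2 ratio of the IRF4 hairpin culture over the control culture (y axis, centred on the median feature of each array) by day of doxycycline (x axis) for IRF4 and 6 immediate early genes, with features of a gene averaged. Lines join KMS12 arrays of 1 series, and the right of each panel holds the 2 H929 arrays (H9) and the SKMM1 array (SK) at day 4. NR4A1 lies below 0 on all 10 induced arrays, and the tested features of KLF4 (8 arrays) and GEM (10 arrays), averaged by gene, lie above 0 on all induced arrays with a value.

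The NR4A1 ratio stood at 0.01, 0.03 and 0.75 on the uninduced arrays of series 1332, 1332b and 2046, at -1.01, -1.82 and -0.11 at days 2-3 and at -0.53, -0.80 and -0.18 at days 4-5. The day 7 array gave -0.34, the H929 arrays -0.68 and -1.14, and the SKMM1 array -1.13. The lowest array was thus series 1332b at day 2, at 28.4% of control, and the highest was the 2046 uninduced array, at 168%. All 10 induced arrays lay below 0 and all 3 uninduced arrays above it, those of series 1332 and 1332b by only 0.01 and 0.03. The NR4A1 feature and both tested DUSP5 features had values on all 13 arrays. Features of this class had medians of 0.05, 0.03 and 0.18 on the uninduced arrays of series 1332, 1332b and 2046. On the induced arrays these medians ran from -0.05 to 0.05. Of all genes and features tested, 2.16% lay below 0 on every induced array.

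Within each series NR4A1 was lower on every induced array than before induction. The change was -1.01, -0.54 and -0.35 at days 3, 5 and 7 in series 1332, -1.85 and -0.83 at days 2 and 4 in series 1332b, and -0.86 and -0.93 in series 2046. In series 2046 the ratio started above the control and ended near it, whereas in the other series it started at the control and ended below it. Against uninduced the difference was -1.24 at days 2-3 (SE 0.38, 95% interval -2.08 to -0.40, 2.37-fold, limma adjusted p = 0.0878) and -0.77 at days 4-5 (SE 0.38, interval -1.61 to 0.07, adjusted p = 0.81). Neither passed. The value at days 2-3 moved with single arrays. Without the 1332b array at day 2 it was -0.82 (adjusted p = 0.254), and without the 2046 array at day 2 it was -1.68 and passed (adjusted p = 0.00852), in a fit where 653 of 4728 genes and features passed. Against 0 in place of the uninduced arrays it was -0.98 and passed (adjusted p = 0.0322), as did 904 of 4728. Class centring gave differences from uninduced of -1.18 at days 2-3 and -0.68 at days 4-5. The windows themselves differed by 0.47 (interval -0.37 to 1.31, adjusted p = 0.516).

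The NR4A1 ratios correlated with those of IRF4, though the order of the induced arrays was not the same. The highest induced NR4A1 ratio, -0.11 on the 2046 array at day 2, stood beside an IRF4 ratio of -1.03. Over 13 arrays Pearson's r of the ratios was 0.815, and over the 10 induced arrays 0.663. Arrays of a series share cultures, and this is a description. Likest patterns were sought among tested named genes other than the members, with values on at least 10 arrays shared with the member. For NR4A1 the likest was that of ATE1, an arginyl transferase (r = 0.947 over 11 arrays). It was followed by IARS1, which charges transfer RNA with isoleucine (r = 0.943 over 13 arrays).

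DUSP5 was lower in KMS12 and SKMM1 and not in H929. In KMS12 its ratio stood at 0.12, -0.09 and 0.06 uninduced in series 1332, 1332b and 2046, at -0.65, -0.19 and -0.26 at days 2-3, and at -0.74, -0.68 and -0.45 at days 4-5. These averages lay lower at the later window in every series, but the 2 features did not share this. On one of them series 1332 and 2046 gave -0.62 and -0.41 at days 2-3 and -0.60 and -0.33 at days 4-5, and the windows differed by -0.08 (SE 0.19, limma adjusted p = 0.859), against -0.45 (SE 0.23, adjusted p = 0.311) on the other. Day 7 of series 1332 averaged -0.78, from -0.20 and -1.37. A DUSP5 feature outside the tests, with 4 values, stood at -0.28 uninduced, 0.03 at day 2 and -1.83 at day 4 in series 1332b, and at 0.41 at day 2 in series 2046. The uninduced arrays stayed between 93.7% and 109% of control, while days 4-5 ranged from 60% to 73.1%. Against uninduced the difference was -0.39 at days 2-3 (SE 0.19, interval -0.81 to 0.03, limma adjusted p = 0.218) and -0.65 at days 4-5 (SE 0.19, interval -1.08 to -0.23, 1.57-fold, adjusted p = 0.758). By unadjusted p it ranked 25 of 4728 at days 4-5, without passing. Class centring gave -0.33 at days 2-3 and -0.56 at days 4-5.

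In the other lines DUSP5 stood at -0.61 on the SKMM1 array and at 0.30 and 0.15 on the H929 arrays. The SKMM1 array thus fell within the range of the KMS12 arrays at days 4-5, and both H929 arrays lay above all of them. H929 differed from KMS12 days 4-5 by 0.85 (SE 0.22, interval 0.38 to 1.32, 1.8-fold, limma adjusted p = 0.115), which did not pass. When only features with a value on all 13 arrays were tested, the difference was 0.87 and passed (adjusted p = 0.0403), along with others to a total of 60 of 2257 tested. With all tested features 2 of 4607 passed (0.0434%), none of them a member. The KMS12 group mixes hairpins. Against the KMS12 2046 array at day 4 alone, which shares hairpin and day with H929, the difference was 0.68. Both tested DUSP5 features had this pattern. On the first H929 lay at 0.18 and 0.24 and KMS12 at days 4-5 between -0.69 and -0.33, and on the second H929 lay at 0.42 and 0.06 and KMS12 between -0.87 and -0.58. The IRF4 ratios of H929 (-1.79 and -1.96) and SKMM1 (-2.03) were close to each other, while their DUSP5 ratios lay on opposite sides of the control.

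The likest patterns to DUSP5 were those of JUP, the junction protein plakoglobin (r = 0.837 over 12 arrays), and THOC6, a subunit of an mRNA export complex (r = 0.823 over 12 arrays). Its r with IRF4 was 0.017 over 13 arrays and -0.666 over the 10 induced arrays. On the same arrays 8 other genes that restrain MAP kinase signalling were tested, 5 above 0 and 3 below at days 4-5 against uninduced, with a median of 0.06 against 0.02 for all tested and 0 called. At days 2-3 they were 7 above and 1 below, with a median of 0.23 against 0.05 for all tested and 0 called. By smallest p they were led by DUSP8 (-0.35), a phosphatase of stress kinases, NF1 (0.51), a brake on RAS, and DOK1 (0.28), an adaptor that recruits such a brake.

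The tested KLF4 feature was higher in the IRF4 hairpin culture on every induced array where it had a value, in all 3 lines. It had no value on the series 1332 arrays before day 7. On the remaining KMS12 arrays it stood at 0.09 and -0.25 uninduced in series 1332b and 2046, at 0.84 and 0.62 at day 2, and at 0.18 and 1.01 at day 4. The day 7 array of series 1332 gave 1.88, the H929 arrays 0.64 and 0.89 and the SKMM1 array 0.89. These 8 induced values spanned 113% to 368% of control, with a median log2 ratio of 0.86. Series 1332b came back close to its uninduced ratio by day 4, while series 2046 was highest at day 4. Of all genes and features tested, 2.86% lay above 0 on every induced array.

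Against uninduced KLF4 differed by 0.81 at days 2-3 (SE 0.32, interval 0.07 to 1.55, limma adjusted p = 0.164) and by 0.67 at days 4-5 (SE 0.32, interval -0.07 to 1.41, adjusted p = 0.81), each from 2 arrays a group, without passing. For hairpin 2046 at day 4, with each of the 3 lines as 1 replicate, the mean ratio was 0.89 (SE 0.16, interval 0.49 to 1.28, 1.85-fold, higher in 3 of 3 lines, limma adjusted p = 0.27). It ranked 14 of 4663 by unadjusted p in that comparison and did not pass. Without KMS12, from the other 2 lines, the mean was 0.83 and passed (adjusted p = 0.0259), as did that of NR4A1 and those of 737 of 4124 genes and features in all. With each array centred separately for features of equal coverage (class centring), the KLF4 difference at days 4-5 was 0.50, and without the series 1332b array at day 4 it was 1.08 and without the series 2046 array at day 4 it was 0.26. A second KLF4 feature outside the tests stood at 0.45 and -0.73 uninduced (series 1332b and 2046) and at 0.54 or above on all 5 induced arrays with a value. Its class, features on 6 to 9 arrays, had medians of -0.04 and -0.63 on those uninduced arrays. The remaining feature, with 4 values, did not share that pattern, at -0.43 uninduced and -0.69 at day 4 in series 1332b and at -0.52 uninduced and 0.42 at day 5 in series 1332. The likest patterns were those of SIT1, a signalling adaptor of lymphocytes (r = 0.951), and VDR, the vitamin D receptor (r = 0.911), over 10 arrays each.

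GEM lay above 0 on all 10 induced arrays and below 0 on all 3 uninduced arrays. It stood at -1.12, -0.22 and -0.33 uninduced in series 1332, 1332b and 2046, at 0.18, 0.52 and 0.38 at days 2-3 and at 0.04, 0.06 and 0.57 at days 4-5. Day 7 gave 0.27, SKMM1 0.17 and the H929 arrays 0.86 and 0.87. The H929 arrays were the highest, and the induced KMS12 and SKMM1 arrays lay between 103% and 149% of control. The uninduced ratio of series 1332, at 45.9% of control, stood apart from the other 2, and the uninduced mean was -0.56 ± 0.49 (SD, n = 3). In KMS12 GEM was thus below the control before induction and at 103% to 149% of it afterwards.

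Against uninduced GEM differed by 0.92 at days 2-3 (SE 0.26, interval 0.35 to 1.49, 1.89-fold, limma adjusted p = 0.0819) and by 0.78 at days 4-5 (SE 0.26, interval 0.21 to 1.35, 1.72-fold, adjusted p = 0.758), passing in neither window. The average of its tested features was higher in every series. Without the 1332 uninduced array the difference at days 4-5 was 0.50, and against 0 in place of the uninduced arrays it was 0.23. Which features carried a value differed between arrays. The H929 arrays measured 1 of the 2 tested features, on which KMS12 at days 4-5 gave 0.14 and 0.50 (series 1332b and 2046), and the difference between H929 and KMS12 days 4-5 of 0.64 (interval 0.01 to 1.27, adjusted p = 0.286) was 0.55 on that feature alone. Against the KMS12 2046 array at day 4 alone it was 0.29 (adjusted p = 0.806). The other tested feature lay below 0 at day 7 of series 1332 (-0.23) and at day 4 of series 1332b (-0.02), there with a change of -0.07 from uninduced. As group means both tested features were higher at days 2-3 (0.81 and 1.16) and at days 4-5 (0.78 and 0.88) than uninduced. The likest patterns were those of SIN3B, a corepressor subunit (r = 0.904), and EPB41, a membrane skeleton protein (r = 0.89), over 13 arrays each, and r with IRF4 was -0.797.

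**Figure D2:**
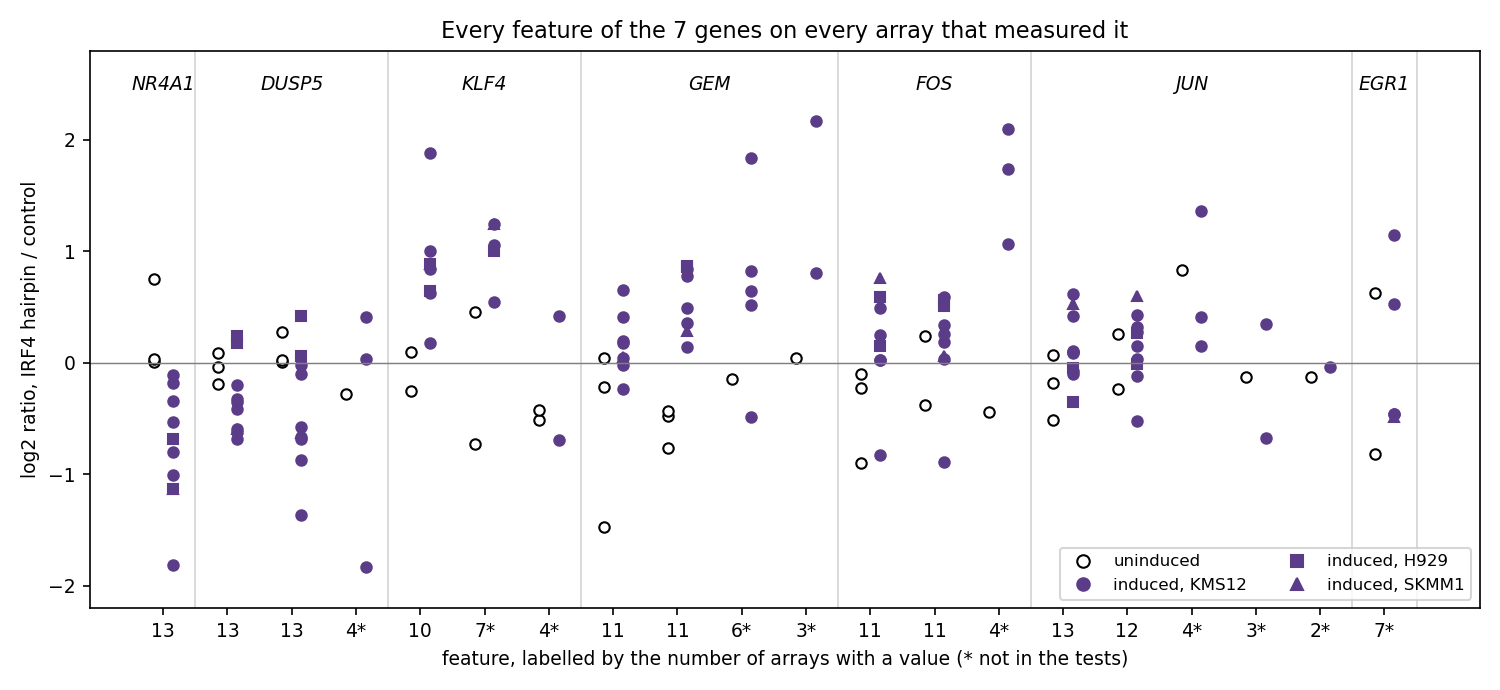
Log2 ratio (y axis) of each feature of the 7 genes on every array with a value. Features are ordered within a gene by the number of arrays that measured them, printed on the x axis, and a star marks those outside the tests. Open circles are uninduced KMS12 arrays and filled symbols are induced arrays. The single NR4A1 feature and the KLF4 feature with 10 values separate open from filled symbols, while the tested features of FOS and JUN do not.

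FOS, the partner of JUN in AP-1, was uneven between series. It stood at -0.90, 0.07 and -0.30 uninduced in series 1332, 1332b and 2046, at -0.83, 0.37 and -0.44 at days 2-3, and at 0.04, 0.22 and 0.18 at days 4-5. Day 7 of series 1332 gave 0.59, the H929 arrays 0.36 and 0.55 and SKMM1 0.41. All arrays from day 4 on lay above 0, in 3 lines. Days 2-3, from -0.83 to 0.37, overlapped the uninduced arrays, from -0.90 to 0.07. The difference from uninduced was 0.08 at days 2-3 (SE 0.31, interval -0.61 to 0.77, limma adjusted p = 0.886) and 0.52 at days 4-5 (SE 0.31, interval -0.16 to 1.21, adjusted p = 0.81). Neither passed, and the first changed sign under several alternatives.

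The FOS course of series 1332 cannot be followed on 1 feature throughout. Its uninduced and day 3 values came from one tested feature, on which they differed by 0.07, and its day 5 and day 7 values came from the other tested feature, which had no uninduced value in that series. Without the 1332 uninduced array the difference at days 4-5 was 0.26. Another FOS feature, outside the tests, had values on 4 arrays, -0.44 uninduced in series 1332b and 1.07, 1.74 and 2.10 at days 3, 5 and 7 of series 1332. On day 3 it lay at 1.07 where a tested FOS feature lay at -0.83 on the same array, so the FOS features disagreed in direction there. The medians of its class, features on 1 to 5 arrays, on those induced arrays were 0.70, 1.04 and 1.34. The likest patterns to the averaged FOS ratio were those of ABCB1, a drug efflux pump (r = 0.938 over 10 arrays), and LAIR2, a secreted collagen receptor (r = 0.904 over 12 arrays).

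JUN stood near the control on most arrays. It was at -0.51, 0.16 and -0.21 uninduced in series 1332, 1332b and 2046, at 0.19, 0.04 and 0.37 at days 2-3 and at 0.27, -0.02 and 0.33 at days 4-5. The day 7 array gave -0.31, the H929 arrays -0.03 and -0.04, and SKMM1 0.57. SKMM1 was the highest array, and the H929 arrays were at 97% and 98.1% of control. In series 1332 and 2046 every induced array was above the uninduced one, by 0.70, 0.78 and 0.20 at days 3, 5 and 7 and by 0.58 and 0.54 at days 2 and 4. In series 1332b both were below it in the average, by changes of -0.13 and -0.18. On 1 tested feature these changes were -0.15 and 0.02, and on the other -0.11 and -0.38. The difference from uninduced was 0.38 in both windows (SE 0.21 each, limma adjusted p = 0.273 at days 2-3 and 0.81 at days 4-5). Without the 1332 uninduced array the difference at days 4-5 was 0.21. The 2 tested features gave 0.48 and 0.10 at days 4-5. The uninduced array of series 1332 measured only 1 of them, on which the changes in that series were 0.61, 0.62 and 0.41. The likest patterns were those of VSIG10L (r = 0.882 over 10 arrays) and KLHL24, an adaptor of a ubiquitin ligase (r = 0.88 over 12 arrays). Between FOS and JUN themselves r was 0.166 over 13 arrays.

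EGR1 had values on 7 arrays from 1 feature. In series 1332b it stood at 0.63 uninduced, 0.53 at day 2 and 1.15 at day 4. In series 2046 it stood at -0.82, -0.46 and -0.46 on the matching days, and SKMM1 gave -0.49. The series thus lay on opposite sides of the control before and after induction, by more than either moved. With the filter lowered to 6 arrays EGR1 could be tested, and days 4-5 differed from uninduced by 0.39 (SE 0.65, limma adjusted p = 0.931).

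**Figure D3:**
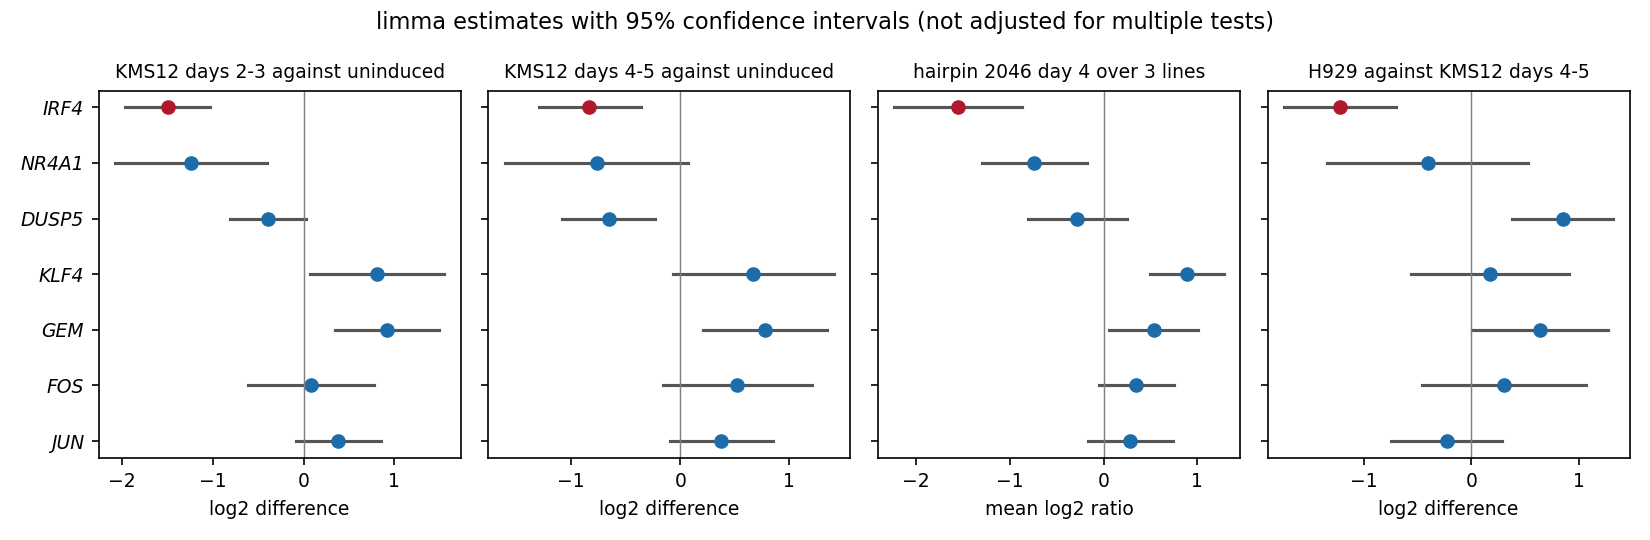
Estimated log2 difference (dots, x axis; for hairpin 2046 the mean log2 ratio) with its 95% confidence interval (lines) for IRF4 (red) and 6 immediate early genes (blue) in 4 comparisons, one per panel. The intervals are not adjusted for the number of genes. NR4A1 and DUSP5 lie left of 0 and KLF4 and GEM right of it in the first 3 panels, and DUSP5 and GEM lie right of 0 in H929 against KMS12.

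To compare lines under 1 hairpin at 1 day, the values of hairpin 2046 at day 4 were averaged over KMS12, H929 and SKMM1. NR4A1 had a mean ratio of -0.74 (SE 0.23, interval -1.30 to -0.18, lower in 3 of 3 lines), GEM 0.54 (interval 0.06 to 1.01, higher in 3 of 3), FOS 0.35 (interval -0.05 to 0.75, higher in 3 of 3) and JUN 0.29 (interval -0.17 to 0.74, higher in 2 of 3). DUSP5, which differed in sign between lines, had -0.28 (interval -0.81 to 0.25). None passed, with limma adjusted p values from 0.27 for NR4A1 and KLF4 to 0.506 for DUSP5, and 0 of 4663 genes and features passed (0%). At an unadjusted p under 0.05 there were 3 of 6 members, against 16.6% of all tested. This comparison is against 0 and holds any dye effect, as no dyes were swapped. Before induction the mean ratio of the KMS12 arrays against 0 was -0.56 for GEM, -0.38 for FOS, 0.26 for NR4A1, -0.19 for JUN, -0.08 for KLF4 and 0.03 for DUSP5, none of which passed (limma, 0 of 4728, 1 of 6 members at an unadjusted p under 0.05 against 8.02% of all tested).

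Between the windows no member differed at an unadjusted p under 0.05, against 18.1% of all tested, and limma called 0 of 4728 (0%). The intervals of the differences of days 4-5 from days 2-3 were -0.24 to 1.13 for FOS, -0.47 to 0.46 for JUN, -0.88 to 0.60 for KLF4, -0.68 to 0.16 for DUSP5 and -0.70 to 0.43 for GEM. In H929 against KMS12 days 4-5 the differences of the members not given above were 0.31 for FOS, -0.23 for JUN, -0.41 for NR4A1 and 0.17 for KLF4, with adjusted p from 0.647 to 0.812.

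Other genes of the same pathway were counted from lists chosen by function, with earlier results of these data known. Of 26 other immediate early genes tested (48 listed), 16 lay above 0 and 10 below at days 4-5 against uninduced, with a median of 0.15 against 0.02 for all tested, and 0 were called in either direction. Those with the smallest p were SGK1, a stress-induced kinase (0.97, SE 0.19), CCL3, a chemokine (0.95, SE 0.30), and NFIL3, a bZIP repressor (-0.81, SE 0.28), none of which passed (limma adjusted p from 0.737 to 0.758). Under hairpin 2046 in 3 lines, KMS12 included, the mean ratio was -1.15 for NFIL3, 0.35 for SGK1 and -0.42 for CCL3. These means are against 0, and that of CCL3 had the opposite sign to its difference from uninduced in KMS12. These comparisons and those of the members at both windows share the uninduced arrays or the KMS12 2046 array at day 4.

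Of the bZIP factors that pair with FOS and JUN or compete with them, 10 of 20 were tested, 5 above 0 and 5 below at days 4-5 (median 0.04, 0 called). They were led by BATF, the AP-1 factor that binds DNA together with IRF4 (0.73, SE 0.20), MAF (0.76, SE 0.40) and JUND (-0.25, SE 0.21). The 0.73 of BATF is against the uninduced arrays, whose mean ratio was -0.28. In H929 against KMS12 days 4-5 BATF differed by -2.39 (SE 0.28, limma adjusted p = 0.0181), where it was 1 of the 2 genes called. In H929 only repeat 2 gave BATF a value, so this difference rests on 1 H929 array. Under hairpin 2046 its mean ratio over 3 lines, KMS12 included, was -0.71 against 0 (limma adjusted p = 0.536). The call in H929 was lost with arrays scaled to 1 spread (adjusted p = 0.0805), with the 2 groups alone (0.084), against the 2046 array alone (0.101) and without the day 4 array of series 1332b (0.0854) or 2046 (0.0891). Of the RAS and MAP kinase genes 20 were tested, 10 above 0 and 10 below (median 0.03, 0 called). Of the serum response, CREB, calcineurin and MEF2 factors and their regulators, repressors included, 23 were tested, 17 above 0 and 6 below (median 0.14, 0 called). They were led by HDAC7, a repressor of MEF2 (0.51), PPP3R1, the calcineurin regulatory subunit (0.60), and CAMK4, a calcium-dependent kinase (0.68). Of the KLF and SP family 4 were tested, 1 above 0 and 3 below (median -0.03, 0 called), and of 12 tested genes known as targets of these factors 7 lay above 0 and 5 below (median 0.05, 0 called). At days 2-3, where the median of all tested was 0.05, the counts above and below 0 were 18 and 8 for the other immediate early genes (median 0.12), 7 and 3 for the bZIP factors (median 0.10) and 13 and 7 for the RAS and MAP kinase genes (median 0.28). They were 14 and 9 for the serum response, CREB, calcineurin and MEF2 list (median 0.11), 1 and 3 for the KLF and SP family (median -0.11) and 9 and 3 for the targets (median 0.23), with 0 called in each list.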

How the data were processed

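The deposited table, with 15246 features and 13 arrays, holds log ratios of the channels, taken here as log2, IRF4 hairpin over control by the dyes in the labels. How the authors normalized the log2 ratios, their log base and the rule for blank spots: not given in the sources used here. Values ran from -9.78 to 7.51. The lowest correlation between arrays was -0.33, between the 2046 uninduced and SKMM1 arrays, and the dye direction was retained, as IRF4 lay below 0 on all 10 induced arrays whichever channel number held the hairpin culture. Depth does not apply to arrays, and their number limits the precision.

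Of the features 10169 had 1 gene symbol, 4 several and 5073 none in the platform annotation, and 10128 identifiers were found in a RefSeq gene table and updated. The median over 6879 features was subtracted from each array. These are the features that passed the filter (at least 10 of 13 arrays and 2 of 3 per KMS12 window). Features of a gene were averaged, giving 4728 tested. Without centring the median gene would move by -0.15 at days 2-3 and -0.13 at days 4-5. The means of 6 groups were estimated by limma (version 3.58.1, R version 4.3.3; lmFit and eBayes, two-sided, Benjamini-Hochberg over all tested, 0.05), tested on simulated data. Deviations from group means of same-series arrays correlated by 0.140 to 0.217 between uninduced and induced windows and by -0.113 to 0.360 between the induced windows. Pairing by culture series comes from the labels. The members, lists and comparisons were chosen with earlier results of these data known. Genes named are the 7 members, IRF4, for 4 lists the 3 genes with the smallest p at days 4-5, and for each tested member the 2 other tested named genes with the highest Pearson correlation. Alternatives were other centring, scaling, filters, feature averaging, left-out arrays, the series as a block and other references.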

Additional observations from a re-analysis of the deposited data

Results flagged for a closer look

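DUSP5 lay above 0 on both H929 arrays and below 0 on all 3 KMS12 arrays at days 4-5, a difference of 0.85 on the log2 scale that did not pass when tested (limma adjusted p = 0.115).

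In series 1332b the JUN average was lower on both induced arrays than uninduced, and in the other series it was higher on every induced array. In series 1332b 1 tested feature changed by -0.15 and 0.02 at days 2 and 4, and the other by -0.11 and -0.38. The uninduced array of series 1332 measured only 1 of them, on which the changes were 0.61, 0.62 and 0.41. The mean change of the average in series 1332 exceeded that of series 1332b by 0.71, and series 1332b minus series 2046 gave -0.71. The difference was not tested.

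The EGR1 ratio lay above 0 on all 3 arrays of series 1332b and below 0 on all 3 of series 2046, by a mean of 1.34 log2 units, uninduced arrays included. The difference was not tested.

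Some features outside the tests also held signal on induced arrays above that on uninduced ones. A FOS feature had a lowest induced ratio of 1.07 over 3 arrays of series 1332, with 1 uninduced value, from series 1332b. A GEM feature had a lowest induced ratio of 0.81 over 2 arrays with 1 uninduced value, and a KLF4 feature had 0.54 over 5 arrays with 2 uninduced values. The FOS and GEM features are among those with values on 1 to 5 arrays, whose medians in series 1332 were -0.75 uninduced and 0.70, 1.04 and 1.34 at days 3, 5 and 7. What part this has in their values was not tested. Other features outside the tests were lower at day 4 than uninduced, in series 1332b GEM (-0.15 to -0.49), JUN (-0.13 to -0.68), KLF4 (-0.43 to -0.69) and DUSP5 (-0.28 to -1.83), and in series 2046 JUN (0.84 to 0.41).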

How the results depend on the processing

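No member passed in any of the 6 comparisons as reported, and this held in 86 of 90 recomputed counts. The exceptions were 1 member at days 2-3 against 0 in place of uninduced (NR4A1), 0 to 1 with single arrays left out (NR4A1, without the 2046 array at day 2), 1 in H929 against KMS12 with features on all 13 arrays (DUSP5), and 0 to 2 when a line was left out (NR4A1 and KLF4 without KMS12). With the culture series as replicate block, 0 members and 0 genes passed, NR4A1 at days 2-3 standing at -1.24 (limma adjusted p = 0.0613), and the block changed no other call. Genes called over the whole table were less stable, and the cause was not tested. At days 2-3, where 0 passed, 339 passed without centring, 2 with arrays scaled to 1 spread, 170 with features on all 13 arrays, 904 against 0, and 0 to 653 with single arrays left out. At days 4-5 these were 4 against 0 and 0 to 1 with arrays left out, between the windows 0 to 360, for the uninduced arrays 0 to 1 and over 3 lines 0 to 737. In H929 against KMS12, where 2 passed, there were 14 with class centring, 0 with scaling, 60 with features on all 13 arrays, 6 with features tested singly, 0 with the 2 groups alone, 1 against the 2046 array and 0 to 4 with arrays left out. Values that changed sign were FOS at days 2-3 (-0.12 without centring, -0.07 with class centring, -0.30 against 0, -0.25 to 0.35 with arrays left out), JUN between the windows (0.04 without centring, 0 with class centring, 0.02 scaled, 0.15 with features on all 13 arrays, 0.12 singly, -0.09 to 0.10 with arrays left out) and KLF4 between the windows (0.07 scaled, -0.55 to 0.27 with arrays left out). KLF4 in H929 against KMS12 gave -0.09 scaled, -0.24 against the 2046 array and -0.24 to 0.59 with arrays left out. Uninduced KLF4 gave 0.07 without centring, 0.09 with class centring and -0.25 to 0.09 with arrays left out, uninduced DUSP5 -0.06 with class centring and with features on all 13 arrays, -0.05 singly and -0.02 to 0.09 with arrays left out, and CAMK4 at days 4-5 gave -0.11 with the looser filter. Signal over background was not used here, so how brightness limits these values is unknown.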
